A study of Mus musculus with 16 samples.

Results

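The Cyp2 family is the largest group of cytochrome P450 enzymes in the mouse, and its transcripts were followed here across livers edited at Cyp7a1 and their controls. Members were all genes of the deposited table whose symbol begins with Cyp2 followed by a subfamily letter and a number, leaving out Cyp2a12, Cyp2c70 and pseudogenes ending in -ps, which gave 31 of the 12618 genes. They fell into the subfamilies 2a (2 genes), 2b (2), 2c (11), 2d (7), 2j (3) and 2e, 2f, 2g, 2r, 2s and 2u (1 each).

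Liver mRNA was sequenced in 8 libraries labelled CYP7A1, where the gene of the rate-limiting enzyme of bile acid synthesis was the CRISPR target, and in 8 labelled Ctrl, from a control CRISPR. All mice of both groups had eaten a Western diet, for 8 weeks. Strain, sex, age, the guide and the way it was delivered are not given in the labels, nor do they say whether the 16 libraries came from as many mice, so p-values reflect library-to-library spread that may be technical. The Y-linked Ddx3y was read in every library, with 344 to 527 normalized counts in Cyp7a1-labelled livers and 324 to 452 in control livers.

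Cytochromes P450 are heme enzymes that insert 1 oxygen atom from molecular oxygen into their substrate, using electrons passed on by P450 oxidoreductase and cytochrome b5. Enzymes of the Cyp2 family sit in the endoplasmic reticulum of hepatocytes and act on drugs, plant compounds, steroids, retinoids and polyunsaturated fatty acids. Many belong to tandem clusters of close copies, and in mice several are set by sex through growth hormone or induced through the receptors CAR and PXR.

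The heme iron of a P450 is held by a cysteine in a short conserved signature, and the coding sequence of this signature is shown for Cyp2d genes because that subfamily held 2 of the 4 members past the threshold and because close copies can share reads. The 30-base windows come from the GENCODE M21 transcripts (GRCm38, chromosome 15) and are written along the coding strand, with the cysteine codon in capitals. A single pattern was searched in a single coding sequence per gene, and a window was found in 29 of 31 members, all but Cyp2b10 and Cyp2s1. This search does not show that those genes lack the signature.
Cyp2d40: ttctcagcaggccgtcgagcaTGTctgggt
Cyp2d26: ttctcagcaggccgcagatcaTGCctgggg
Cyp2d22: ttctcagcaggccgcagatcaTGCctgggg
Cyp2d9: ttctcagcaggccgcagatcaTGCctgggg
Cyp2d10: ttctcagcaggccgcagatcaTGCctgggt
The window of Cyp2d26 was identical to those of Cyp2d22 and Cyp2d9, while the window of Cyp2d40 differed from them at 5 bases and from that of Cyp2d10 at 4.

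Likeness over longer coding stretches, gaps left out, was ordered differently. Over aligned coding bases, Cyp2d26 was most like Cyp2d40, at 84.1% identity, and least like Cyp2d22, at 78.5%, and Cyp2d40 most like Cyp2d10, at 85.3%. The coding sequence taken for Cyp2d40 has only 1014 bases, against 1500 in Cyp2d26 and Cyp2d22 and 1512 in Cyp2d10. Identities with Cyp2d40 thus cover a shorter stretch and cannot be ranked on equal terms with the others. Of all coding stretches of 50 bases, 12.0% in Cyp2d26 and 26.5% in Cyp2d40 also occurred in a transcript of another Cyp2 gene, against 43.4% in Cyp2d10 and 60.1% in Cyp2c69. Cyp2e1, Cyp2f2, Cyp2u1, Cyp2r1 and Cyp2c44 shared none. How reads matching several genes were counted is not given in the sources used here, so values of single genes in the Cyp2a, Cyp2b, Cyp2c and Cyp2d clusters are less certain than those of genes without a close copy.

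The Cyp7a1 transcript was not lower in the livers that carry its name. It had 3069, 4892 and 5873 normalized counts as the lowest, median and highest of the Cyp7a1-labelled livers, against 2148, 3281 and 5642 in the controls. Its log2 fold change was 0.43 (limma adjusted p = 0.227, two-sided exact permutation p = 0.0716). Total reads of a gene cannot tell an edited coding sequence from an intact one, so every direction below rests on the labels, and the group is called Cyp7a1-labelled.

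Taken as levels per kilobase of exon, the members spanned more than 4 orders of magnitude. Cyp2e1, the enzyme of ethanol, acetone and paracetamol oxidation in pericentral hepatocytes, stood highest, with 112460 ± 15390 normalized counts per kb in Cyp7a1-labelled livers and 119916 ± 20905 in control livers (SD, n = 8 each). Cyp2f2, which bioactivates naphthalene and marks periportal hepatocytes, followed with 13864 ± 2322 and 15788 ± 1346 normalized counts per kb in the same order of groups. In control livers Cyp2d26 came next, with 13930 ± 1246 normalized counts per kb, within the spread of Cyp2f2, and in Cyp7a1-labelled livers it had 9258 ± 508. Cyp2d9, Cyp2c29, Cyp2d10 and Cyp2j5 followed, with 7361, 4774, 5949 and 5909 normalized counts per kb in Cyp7a1-labelled livers and 8801, 8057, 6620 and 6130 in controls. In controls each of these 4 overlapped its neighbour in that order. The lowest was Cyp2s1, with 4.29 ± 1.43 normalized counts per kb in Cyp7a1-labelled livers and 5.04 ± 1.70 in controls. The 31 genes together took 1.75%, 1.87% and 2.14% of all normalized counts of a library (lowest, median, highest) in Cyp7a1-labelled livers, against 1.78%, 2.17% and 2.55% in controls.

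**Figure D1:**
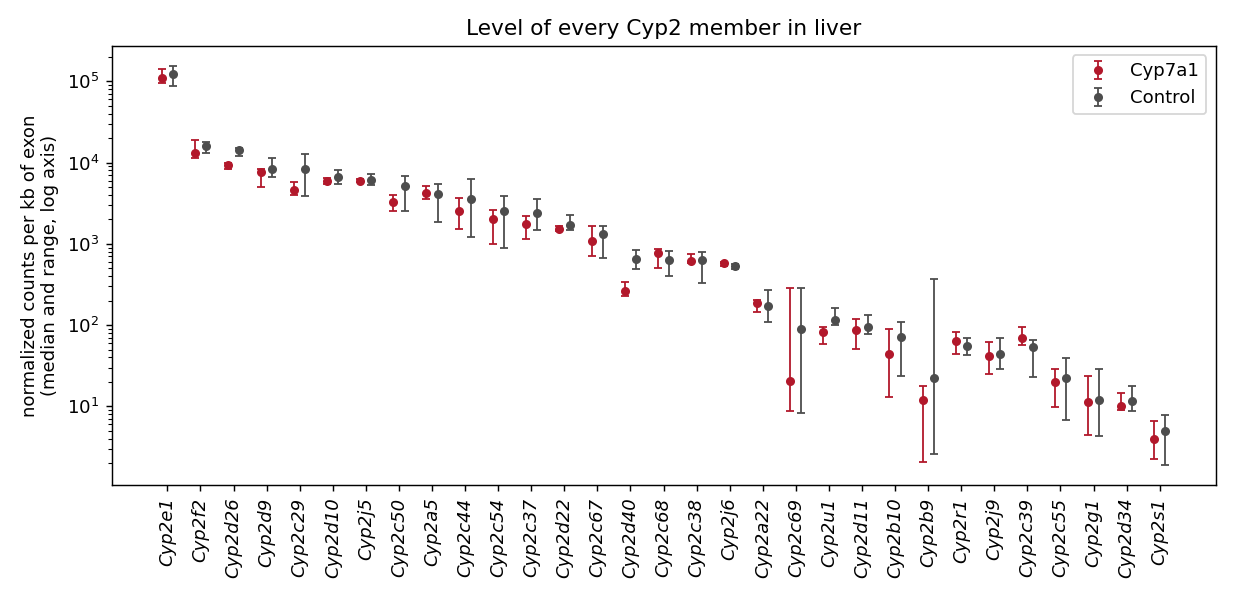
Level of each of the 31 Cyp2 genes in normalized counts per kb of exon (log axis), ordered by the control mean. Points are medians and bars run from the lowest to the highest liver of each group (8 Cyp7a1-labelled, 8 control). Cyp2e1 stands far above all others, and Cyp2b9 and Cyp2c69 have the longest bars.

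Of the 31 genes, 3 fell and 1 rose in Cyp7a1-labelled livers (limma on log2(value + 1), Benjamini-Hochberg adjusted p under 0.05 over 12617 genes). That is 12.9% of the members, against 6.12% of all genes tested, with 3.05% of all genes lower and 3.07% higher. All 31 passed the filter on low values, a mean of 10. The fold change lay below 0 for 24 of 31 members, with a median log2 fold change of -0.19, where 49.1% of all genes lay below 0 and their median was 0.0034. Groups did not overlap for 3 members, all lower, where this was so for 1.04% of all genes, 0.507% higher and 0.531% lower. The members that fell were Cyp2d26, Cyp2d40 and Cyp2u1, and the one that rose was Cyp2c39. In bulk liver, fewer cells of a type and less RNA per cell cannot be told apart.

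**Figure D2:**
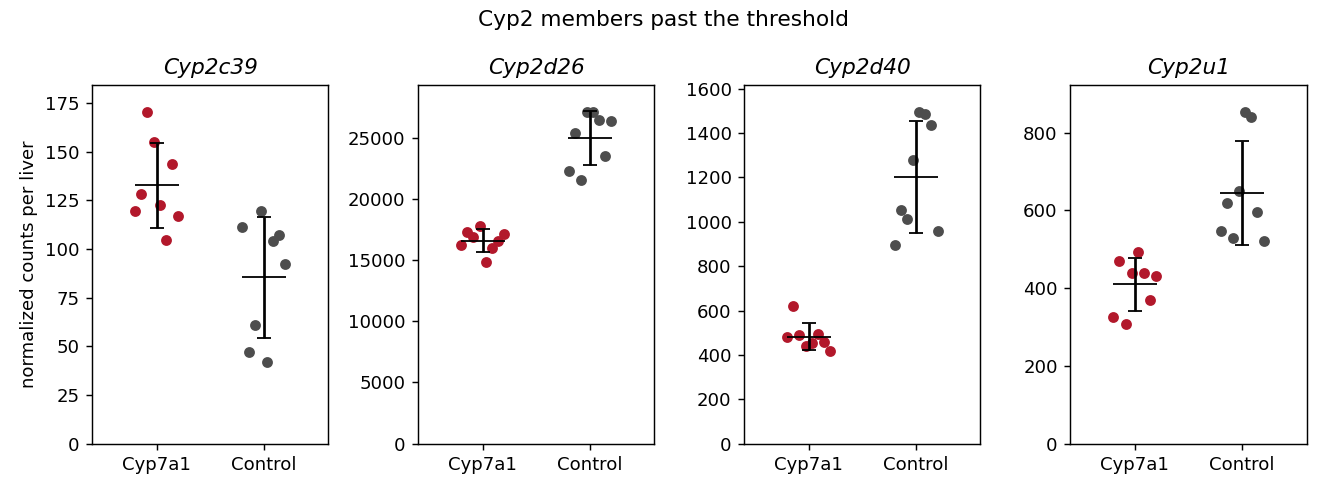
Normalized counts per liver of the 4 Cyp2 genes past the threshold, Cyp7a1-labelled livers left and control livers right of each panel. Points are single livers, and the bar with whiskers is the mean ± SD (n = 8 each). The groups do not overlap for Cyp2d26, Cyp2d40 and Cyp2u1 and overlap for Cyp2c39, where 8 of 8 Cyp7a1-labelled livers exceed the control mean.

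The Cyp2d subfamily, named for the human debrisoquine hydroxylase CYP2D6, held the clearest difference. Cyp2d40 (chromosome 15, 82759833 to 82764183 on GRCm38, minus strand) had 416, 469 and 620 normalized counts as the lowest, median and highest of the Cyp7a1-labelled livers, against 893, 1165 and 1497 in the controls. The highest Cyp7a1-labelled liver lay below the lowest control. This was a log2 fold change of -1.30 ± 0.11 (SE; 95% interval -1.54 to -1.06, adjusted p = 2.94e-06), and the mean in Cyp7a1-labelled livers was 0.401 times the control mean.

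Cyp2d26 (chromosome 15, 82790101 to 82794294, minus strand), the Cyp2d gene with the highest level per kb, also fell. It had 14823, 16739 and 17762 normalized counts in Cyp7a1-labelled livers, against 21552, 25854 and 27133 in controls. Again the groups did not overlap, and the spread within each was small, with an SD of 911 normalized counts in Cyp7a1-labelled livers and 2234 in controls. The log2 fold change was -0.59 ± 0.06 (95% interval -0.71 to -0.46, adjusted p = 2.57e-05). Cyp2d26 and Cyp2d40 lie near each other on the same strand and overlap no other annotated gene.

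The other 5 Cyp2d genes did not pass the threshold, and each had a log2 fold change below 0. Cyp2d9, a male-predominant testosterone 16-alpha-hydroxylase, had 13393, 20489 and 22233 normalized counts in Cyp7a1-labelled livers, against 17490, 22203 and 30300 in controls (log2 fold change -0.25, 95% interval -0.51 to 0.02, adjusted p = 0.278). All 8 Cyp7a1-labelled livers lay below the control mean, but the ranges overlapped widely. Cyp2d10 had a log2 fold change of -0.15 (95% interval -0.30 to 0.01) and Cyp2d22, often taken as the mouse counterpart of human CYP2D6, of -0.19 (-0.35 to -0.04, adjusted p = 0.135). The low genes Cyp2d11 and Cyp2d34 had -0.18 and -0.10. The intervals of Cyp2d9, Cyp2d10, Cyp2d22, Cyp2d11 and Cyp2d34 all leave out the log2 fold change of -1.30 of Cyp2d40, but the difference between genes was not tested. The pseudogene Cyp2d37-ps of the same cluster, not a member, was at 583 ± 57.5 normalized counts in Cyp7a1-labelled livers and 789 ± 90.4 in controls (log2 fold change -0.43, adjusted p = 0.00296). The low pseudogene Cyp2d41-ps, also not a member, was at 21.6 ± 10.5 and 35.7 ± 11.4 in the same order and missed the threshold (-0.75, adjusted p = 0.0830).

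Since Cyp2d26 and Cyp2d40 fell while close copies did not pass the threshold, their promoter windows are printed beside those of Cyp2d9 and Cyp2d10. Each spans 300 bases around the RefSeq start site (GRCm38.p6), most of them before it, written 5′ to 3′ along the gene, and a RefSeq window was at hand for 25 of 31 members. Capitals mark matches on either strand to TATAAA (the TATA box), AGGTCA (the core motif of nuclear receptors), CAAAGTCCA (an HNF4A-type site), TTCNNNGAA (STAT) and TTGCNNAA (C/EBP-type). No 2 of these matches overlapped in the windows shown.
Cyp2d26, chr15:82794196-82794495, minus strand: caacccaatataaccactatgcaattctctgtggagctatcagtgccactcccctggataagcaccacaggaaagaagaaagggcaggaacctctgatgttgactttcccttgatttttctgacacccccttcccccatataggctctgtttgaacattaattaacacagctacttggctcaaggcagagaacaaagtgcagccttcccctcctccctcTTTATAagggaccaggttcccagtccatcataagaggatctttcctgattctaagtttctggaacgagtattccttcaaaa
Cyp2d40, chr15:82764073-82764372, minus strand: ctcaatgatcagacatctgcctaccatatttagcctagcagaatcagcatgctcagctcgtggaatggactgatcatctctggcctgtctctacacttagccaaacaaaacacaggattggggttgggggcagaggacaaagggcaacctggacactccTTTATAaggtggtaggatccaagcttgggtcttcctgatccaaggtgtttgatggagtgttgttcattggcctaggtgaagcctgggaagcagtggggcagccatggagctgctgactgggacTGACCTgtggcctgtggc
Cyp2d9, chr15:82452127-82452426, plus strand: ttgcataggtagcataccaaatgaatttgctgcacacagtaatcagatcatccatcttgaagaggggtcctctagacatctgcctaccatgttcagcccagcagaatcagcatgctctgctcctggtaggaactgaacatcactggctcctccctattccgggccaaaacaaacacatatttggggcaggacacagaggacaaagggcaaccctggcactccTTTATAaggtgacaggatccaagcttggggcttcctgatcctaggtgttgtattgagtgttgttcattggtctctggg
Cyp2d10, chr15:82407145-82407444, minus strand: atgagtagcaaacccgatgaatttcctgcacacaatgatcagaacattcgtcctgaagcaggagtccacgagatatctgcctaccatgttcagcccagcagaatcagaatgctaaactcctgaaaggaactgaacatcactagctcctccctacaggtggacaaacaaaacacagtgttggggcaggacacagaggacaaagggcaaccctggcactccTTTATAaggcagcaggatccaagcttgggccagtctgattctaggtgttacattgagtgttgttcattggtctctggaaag
A TTTATA run, the reverse complement of TATAAA, began 31 bases before the start site in Cyp2d26 and Cyp2d10, 28 before it in Cyp2d9 and 91 before it in Cyp2d40. These distances depend on the annotated start. The RefSeq start of Cyp2d40 lies 61 bases inside the GENCODE gene, whose end is 30 bases from the same TTTATA. For Cyp2d26 the RefSeq start lies 49 bases inside its GENCODE gene, for Cyp2d10 1 base and for Cyp2d9 18940 bases. The AGGTCA match of Cyp2d40, TGACCT as printed, lies after its RefSeq start site. Over aligned bases, the Cyp2d40 window was 81.9% identical to that of Cyp2d9 and 80.4% to that of Cyp2d10, and 67.8% to that of Cyp2d26. The windows are not set at the same distance from TTTATA, so these percentages do not rank the likeness of the promoters. Whether promoter likeness relates to the falls was not tested.

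Among the 25 member windows, TATAAA occurred on either strand in 15, against 13.6% of the 32851 windows of all genes. AGGTCA occurred in 6 of 25 (16.3% of all windows), TTGCNNAA in 7 (10.8%), CAAAGTCCA in 3 (0.475%) and TTCNNNGAA in 0 (8.30%). The 3 windows with CAAAGTCCA were those of Cyp2c67, Cyp2c68 and Cyp2c69, close copies of 1 another. A match describes the letters only and does not show binding.

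Cyp2u1 (chromosome 3, 131288441 to 131303227, minus strand) stands alone, with no close copy in the family, and its human counterpart hydroxylates the chain end of long fatty acids such as arachidonic acid. It had 307, 435 and 493 normalized counts in Cyp7a1-labelled livers, against 521, 608 and 855 in controls. No Cyp7a1-labelled liver reached the lowest control. It had a log2 fold change of -0.65 ± 0.12 (95% interval -0.90 to -0.39, adjusted p = 0.00500). Cyp2u1 overlaps the annotated gene 4930534D22Rik, and the strand setting of the counting is not given.

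These 3 falls did not rest on a single liver. With any 1 library left out, the highest adjusted p was 1.61e-05 for Cyp2d40, 0.000129 for Cyp2d26 and 0.0130 for Cyp2u1, and their log2 fold changes stayed within -1.36 to -1.25, -0.62 to -0.56 and -0.69 to -0.58.

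**Figure D3:**
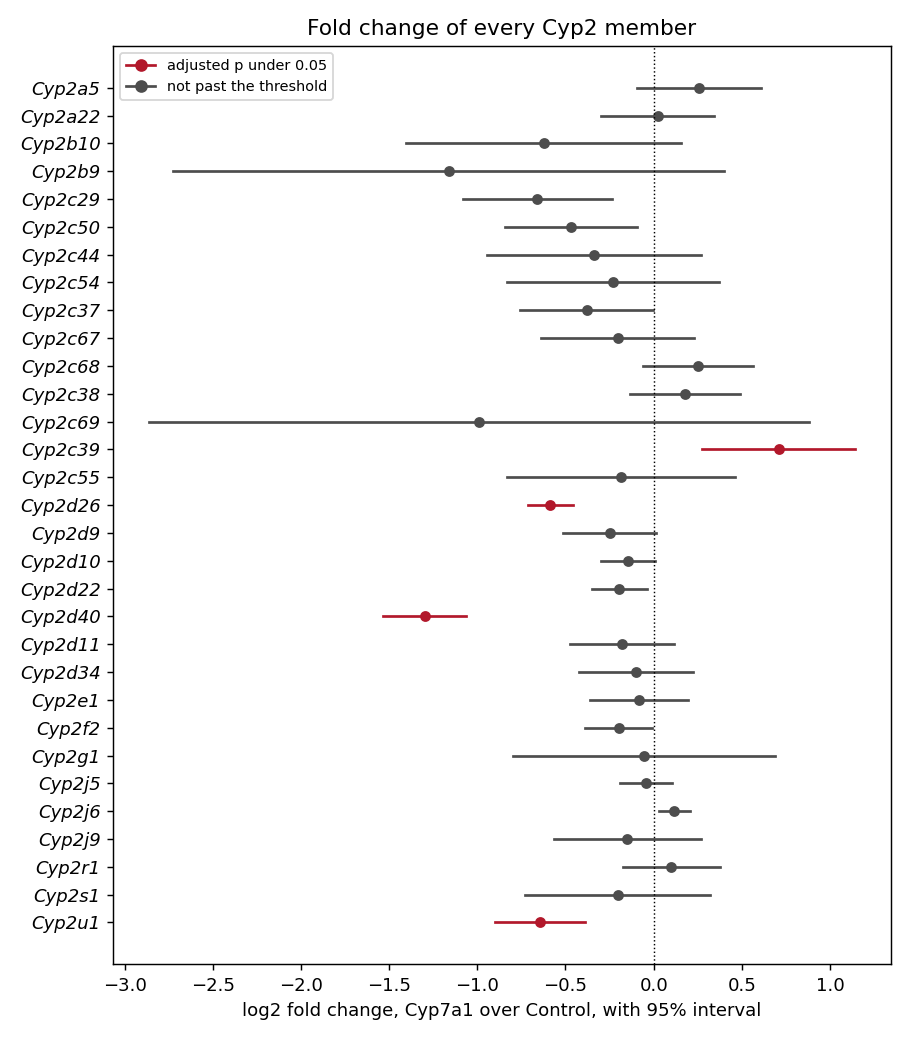
Log2 fold change of each of the 31 Cyp2 genes, Cyp7a1-labelled over control, with its 95% interval from limma, ordered by subfamily and, within it, by control level. Red marks an adjusted p under 0.05. Cyp2d40, Cyp2d26 and Cyp2u1 lie left of 0 and Cyp2c39 right of it, and the intervals of Cyp2b9 and Cyp2c69 are the widest.

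The Cyp2c subfamily, whose enzymes oxidise drugs and turn arachidonic acid into epoxides, lies on chromosome 19. Of its 11 members 1 rose and 0 fell, or 9.09% against 6.12% of all genes, and 8 of 11 fold changes lay below 0, against 49.1% of all genes (median log2 fold change -0.23). Cyp2c39, which hydroxylates retinoic acid, had 105, 125 and 171 normalized counts in Cyp7a1-labelled livers, against 41.8, 98.1 and 120 in controls. Every Cyp7a1-labelled liver lay above the control mean of 85.5, but the ranges overlapped. The log2 fold change was 0.71 ± 0.21 (95% interval 0.28 to 1.14, adjusted p = 0.0493), a value just under the threshold. The call held without Control 7, 16 or 35 and was lost without any other single library (adjusted p between 0.0355 and 0.0906, the highest without Cyp7a1 19). It was also lost with edgeR (0.0677), quantile normalization (0.0546), equal totals (0.0558) and array weights (0.0503), and kept with DESeq2 (0.0250), a pseudocount of 8 (0.0473) and a minimum mean of 50 (0.0466). Its closest copy, Cyp2c38, 94.2% identical, had a log2 fold change of 0.18 (95% interval -0.13 to 0.49).

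Cyp2c29, a hepatic epoxygenase inducible through CAR and the Cyp2c gene with the highest level per kb, had 12116, 14222 and 17806 normalized counts in Cyp7a1-labelled livers, against 12037, 25268 and 38682 in controls. The Cyp7a1-labelled livers lay in a narrow band at the low end of the control range. The log2 fold change was -0.66 ± 0.20 (95% interval -1.08 to -0.24), and the adjusted p of 0.0595 missed the threshold. It passed with edgeR (adjusted p = 0.0317), DESeq2 (0.00319), quantile normalization (0.0234) and equal totals (0.0333), and without Control 7 (0.0380), Control 12 (0.0477) or Control 13 (0.0143), the 3 controls with the lowest values.

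Cyp2c50, Cyp2c54, Cyp2c37 and Cyp2c44, all able to oxidise arachidonic acid, also had log2 fold changes below 0 that did not pass the threshold. Cyp2c50 had 7410, 9458 and 11778 normalized counts in Cyp7a1-labelled livers, against 7409, 14992 and 19797 in controls (log2 fold change -0.47, 95% interval -0.84 to -0.09, adjusted p = 0.134). Without Control 7 its adjusted p was 0.0329, and with DESeq2 it was 0.0322, both past the threshold. Cyp2c37 had a log2 fold change of -0.38 (-0.76 to -0.0013, adjusted p = 0.241), Cyp2c44 of -0.34 (-0.94 to 0.27, adjusted p = 0.565) and Cyp2c54 of -0.23 (-0.83 to 0.37, adjusted p = 0.720). Cyp7a1-labelled livers formed no such narrow band for Cyp2c44 and Cyp2c54, with SDs on the log2 scale of 0.44 and 0.48, against 0.19 for Cyp2c29. In each of these 5 genes the same control livers, 16, 20, 25, 35 and 38, were the 5 highest of 8, and Control 20 was the highest, a grouping noticed after the values were seen. In Cyp2c38 and Cyp2c39, by contrast, Control 20 was the lowest. Cyp2c37, Cyp2c50 and Cyp2c54 are 95.2% to 96.1% identical to their closest copy, and the part of shared reads in this likeness was not tested, while 0% of the 50-base stretches of Cyp2c44 occur in another Cyp2 gene.

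**Figure D4:**
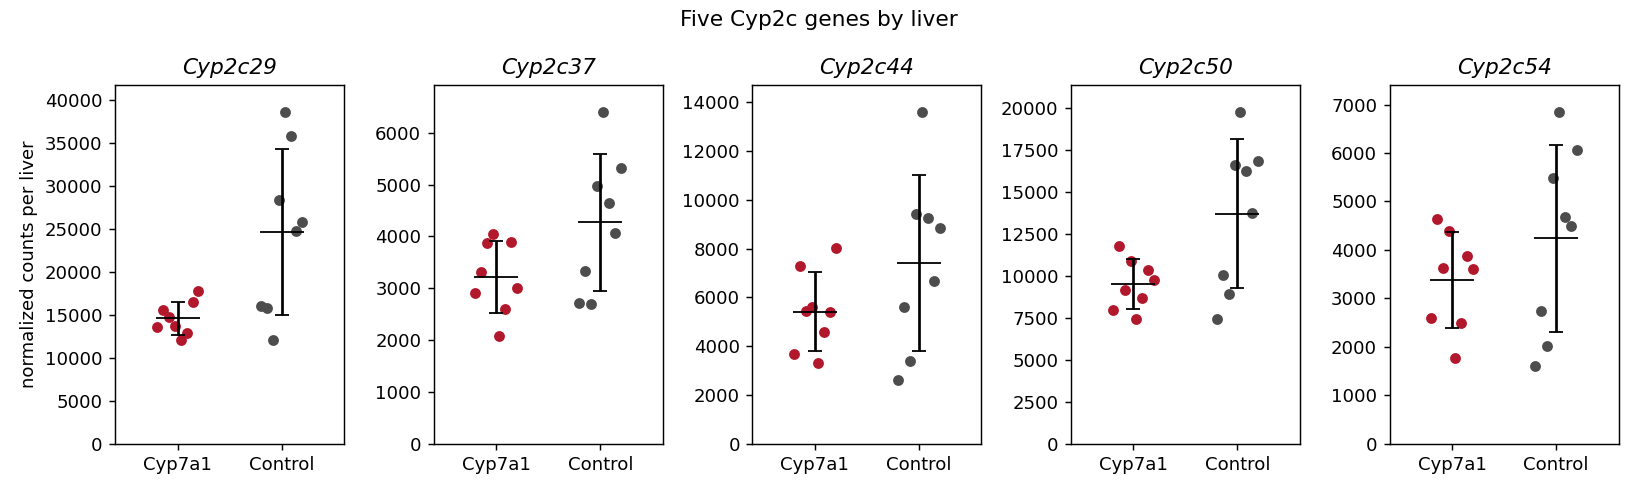
Normalized counts per liver of Cyp2c29, Cyp2c37, Cyp2c44, Cyp2c50 and Cyp2c54, Cyp7a1-labelled livers left and controls right, with mean ± SD (n = 8 each). In each panel Controls 7, 12 and 13 are the 3 lowest controls, and for Cyp2c29, Cyp2c37 and Cyp2c50 all 8 Cyp7a1-labelled livers lie below the control mean.

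The spread between livers was wider in controls for all 11 Cyp2c genes. On the log2 scale the SD of Cyp2c29 was 0.19 in Cyp7a1-labelled livers and 0.60 in controls, and that of Cyp2c38 was 0.12 and 0.45 in the same order of groups. The SDs lay closer together for Cyp2c67, at 0.43 and 0.49, and Cyp2c69, at 1.91 and 2.09, again in that order. Over all 31 members the control SD was the larger in 25, or 80.6%, against 54.9% of all genes tested. The median SD of the members was 0.25 in Cyp7a1-labelled livers and 0.45 in controls, with 0.16 and 0.17 over all genes. The members are not independent of each other, so this is a description, with no test.

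Of the remaining Cyp2c genes, Cyp2c68 had a log2 fold change of 0.25 (95% interval -0.06 to 0.57), Cyp2c67 of -0.20 (-0.64 to 0.23) and the low Cyp2c55 of -0.19 (-0.83 to 0.46). Cyp2c69 differed more between livers than between groups. Its lowest, median and highest values were 14.9, 34.9 and 487 normalized counts in Cyp7a1-labelled livers, against 14.1, 155 and 486 in controls. Livers Cyp7a1 2 and 28 had 322 and 487, and the other 6 Cyp7a1-labelled livers had 14.9 to 49.7. Controls 7, 13, 20 and 35 had 248, 371, 486 and 448, against 14.1 to 61.5 in the other 4 controls. No liver of either group lay between 61.5 and 248, and the log2 fold change of -0.99 had a 95% interval from -2.86 to 0.88. Of its coding 50-base stretches 60.1% also occur in another Cyp2 gene, and it is 97.7% identical to Cyp2c67, which showed no such gap.

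In the Cyp2b subfamily, known for its induction by phenobarbital through CAR, neither gene passed. Cyp2b10, the classical CAR target, had 27.1, 93.8 and 188 normalized counts in Cyp7a1-labelled livers, against 49.8, 151 and 233 in controls (log2 fold change -0.62, 95% interval -1.40 to 0.16, adjusted p = 0.374). The female-predominant Cyp2b9 had 3.92, 22.5 and 33.3 normalized counts in Cyp7a1-labelled livers, against 4.88, 41.5 and 694 in controls. Control 7 alone held the 694, and the next control had 75.2. The log2 fold change of Cyp2b9 was -1.16 (95% interval -2.72 to 0.40, adjusted p = 0.412), and -0.58 (adjusted p = 0.617) without Control 7, all from limma. On the recovered reads of all 16 libraries its log2 fold change was -2.56 with DESeq2 (adjusted p = 0.0230) and -2.60 with edgeR (adjusted p = 0.0673), so both its size and its call depended on the model. Neither fit on recovered reads was run without Control 7.

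**Figure D5:**
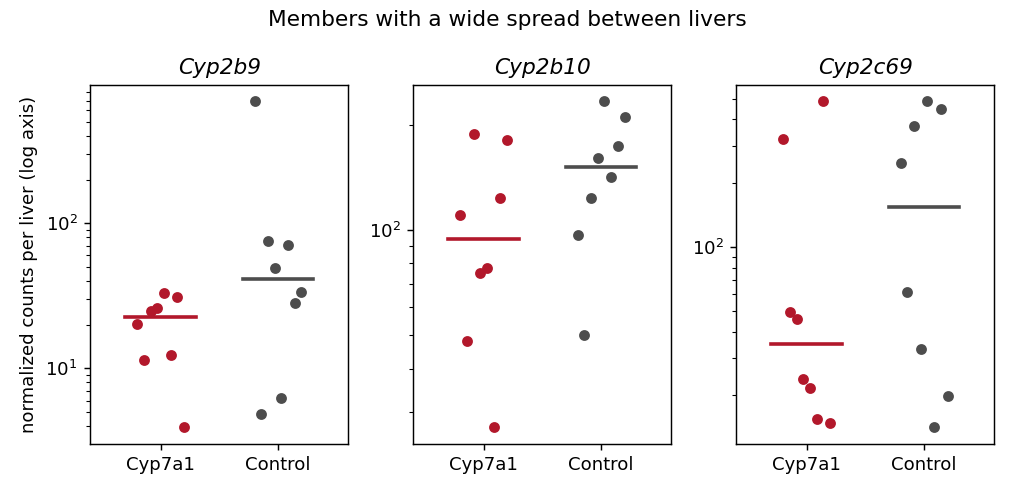
Normalized counts per liver (log axis) of Cyp2b9, Cyp2b10 and Cyp2c69, Cyp7a1-labelled livers left and controls right. Lines are medians. One control stands far above the others for Cyp2b9, and Cyp2c69 falls into a low and a high set of livers within both groups.

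In the Cyp2a subfamily, Cyp2a5, which hydroxylates coumarin and nicotine, had 7356, 8733 and 10664 normalized counts in Cyp7a1-labelled livers, against 3883, 8396 and 11147 in controls. The Cyp7a1-labelled livers lay inside the control range, and the log2 fold change was 0.26 (95% interval -0.09 to 0.61). Cyp2a22 had a log2 fold change of 0.02 (-0.30 to 0.34), with the sign depending on the setting. Of the coding 50-base stretches of Cyp2a5, 51.6% occur in another Cyp2 gene. That search covered all annotated Cyp2 transcripts, also of genes that are not members, and the matching gene is not given here. Cyp2a22, the only other Cyp2a member, is 76.1% identical to Cyp2a5.

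The most abundant member, Cyp2e1 (chromosome 7, 140763739 to 140774987, plus strand), had 203321, 235324 and 304691 normalized counts in Cyp7a1-labelled livers, against 189564, 263550 and 334520 in controls. The ranges overlapped over most of their length, and the log2 fold change was -0.08 (95% interval -0.36 to 0.19). Cyp2f2 had 23292, 26763 and 38086 normalized counts in Cyp7a1-labelled livers, against 26898, 32703 and 35836 in controls. Its log2 fold change was -0.20 (95% interval -0.39 to -0.01, adjusted p = 0.220), and it passed the threshold without Cyp7a1 5, the highest liver of its group (adjusted p = 0.0489).

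The Cyp2j genes, whose enzymes also make epoxides of arachidonic acid, had narrow intervals for the abundant Cyp2j5 and Cyp2j6. Cyp2j5 had 13448, 13732 and 14873 normalized counts in Cyp7a1-labelled livers, against 12258, 14420 and 16909 in controls. Its log2 fold change was -0.04 (95% interval -0.19 to 0.10). Cyp2j6 had 1912, 2093 and 2174 normalized counts in Cyp7a1-labelled livers, against 1764, 1900 and 2018 in controls, and all 8 Cyp7a1-labelled livers lay above the control mean. Its log2 fold change of 0.12 (0.03 to 0.20) did not pass (adjusted p = 0.113). Cyp2j9 had a log2 fold change of -0.15 (-0.57 to 0.27).

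Of the single-gene subfamilies, Cyp2r1, a vitamin D 25-hydroxylase, had 92.5, 136 and 172 normalized counts in Cyp7a1-labelled livers, against 91.7, 119 and 149 in controls (log2 fold change 0.10, 95% interval -0.18 to 0.38). Cyp2g1, an enzyme of the olfactory mucosa, had 9.61 to 51.0 normalized counts in Cyp7a1-labelled livers and 9.22 to 61.4 in controls, with a log2 fold change of -0.06 (-0.80 to 0.69). Cyp2s1 had a median of 19.3 normalized counts in Cyp7a1-labelled livers and 24.4 in controls, with a log2 fold change of -0.20 (-0.73 to 0.32). At these low levels the intervals are wide, and smaller differences were not detectable.

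Genes that serve P450 enzymes were read beside the family, as lists chosen with earlier results of these data known. Over all genes tested 3.07% were higher, 3.05% lower and 20.5% had an unadjusted p under 0.05, and the counts of these short lists are read against that. Of 7 electron donors 1 was lower and 0 higher (median log2 fold change 0.07), and it was Cyb5a, cytochrome b5, with 14692, 18065 and 19127 normalized counts in Cyp7a1-labelled livers, against 17733, 22513 and 24332 in controls (log2 fold change -0.32 ± 0.08, adjusted p = 0.0229). Of 8 genes of heme synthesis none passed, and 3 of 8 had an unadjusted p under 0.05, against 20.5% of all genes (median log2 fold change -0.05). The one with the smallest p was the ferrochelatase Fech, with a log2 fold change of -0.16 (adjusted p = 0.104). Among 20 nuclear receptors and transcription factors of hepatic P450 genes, 2 were higher and 0 lower (median -0.04), the coactivator Ppargc1a by 0.69 ± 0.11 on the log2 scale (adjusted p = 0.00175) and Foxa3 by 0.55 ± 0.14 (adjusted p = 0.0285).

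Among 24 tested genes induced through CAR and PXR outside the family, 4 were higher and 5 lower, or 37.5% against 6.12% of all genes (median log2 fold change -0.03). Cyp3a25 fell by 0.45 on the log2 scale and Ugt1a1 by 0.26, while Ugt1a9, which shares exons with Ugt1a1, rose by 1.62 (adjusted p = 0.000277, 0.0141 and 0.00780 in the order named). Of 10 genes of growth hormone signalling none passed and 1 had an unadjusted p under 0.05, Stat5b, with a log2 fold change of -0.15 (adjusted p = 0.136). Of 18 male-biased liver genes outside the family 3 were lower and 0 higher, against 3.05% lower and 3.07% higher of all genes (median -0.22), Gna14, Serpina12 and Mup3, with log2 fold changes of -0.80, -0.83 and -0.998 (adjusted p = 0.00530, 0.0205 and 0.0264). Of 10 tested female-biased genes 2 were higher and 0 lower, against the same 3.07% and 3.05% (median 0.41), the steroid hydroxylase Cyp17a1 by 2.00 and the peroxisomal transporter Abcd2 by 0.92 (adjusted p = 0.00254 and 0.0192). Cyp2d9 and Cyp2b9, named above as sex-biased, did not pass, and the other members were not sorted by sex bias.

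In arachidonate and epoxide metabolism 1 of 20 tested genes was higher and 0 lower, or 5.0% against 6.12% of all genes (median log2 fold change 0.0019), the fatty acid omega-hydroxylase Cyp4a14, by 1.36 ± 0.32 (adjusted p = 0.0196). Of 16 pericentral genes 1 was higher (median -0.13), the ammonium transporter Rhbg, by 0.71 (adjusted p = 0.0236), and of 16 periportal genes 1 was higher (median 0.22), Aldh1b1, by 0.65 (adjusted p = 0.0254). Each zonal list thus had 6.25% of its genes past the threshold, against 6.12% of all genes. An unadjusted p under 0.05 was reached by 11 of 16 pericentral and 4 of 16 periportal genes, where 20.5% of all genes did so, and 9 of the 16 pericentral and 4 of the 16 periportal fold changes lay below 0. The pericentral Cyp2e1 and the periportal Cyp2f2 did not pass the threshold.

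Recovered reads ran from 19610809 to 27357303 per library in Cyp7a1-labelled livers and from 13768538, in Control 38, to 25427266 in controls. Hepatocyte markers summed to 1680853 to 2444120 normalized counts in Cyp7a1-labelled livers and 1624824 to 2425658 in controls. Of these 11 markers 1, Tat, was higher, or 9.09% against 6.12% of all genes past the threshold. The fold changes of 3 of the 11 lay below 0. Of the markers of macrophages (12 tested), stellate cells (10), endothelium (9), lymphocytes (2) and blood (5) none passed, while 3 endothelial ones had an unadjusted p under 0.05. Of 6 tested cholangiocyte markers 1, Krt23, was lower, where 3.05% of all genes were. The fold changes of 5 of the 6 lay above 0 (median log2 fold change 0.11). Summed cholangiocyte markers had 1311 to 3952 normalized counts in Cyp7a1-labelled livers and 1105 to 3837 in controls. The summed macrophage level was 5470 to 22027 normalized counts in Cyp7a1-labelled livers and 6462 to 12551 in controls.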

How the data were processed

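A KAPA RNA Hyperprep kit served for the mRNA libraries, per the labels' protocols. Trim Galore 0.6.10, STAR 2.7.11a, featureCounts, Subread, DESeq2 and R 3.6.3 are named with build mm10, per the submitters' processing notes, without role or order. Values in the deposited file are normalized counts, a signal that the authors scaled by library, of 12618 genes in 16 libraries. Ccne2, with text in 1 cell, was left out.

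Groups were compared by limma 3.58.1 in R 4.3.3, using lmFit and a trended eBayes, on log2(value + 1) over 12617 genes, 8 libraries against 8, with no covariate, since the labels give none. Values are whole multiples of 1 step per library (99.94% or more within 0.05 reads), and edgeR 4.0.16 and DESeq2 1.42.0 on these recovered reads were alternatives. The group comparison by these 3 tools was tested on simulated data. The simulation drew each gene independently and changed 200 of 12617 genes. Of the calls there, 5.46% were false with limma, 4.92% with edgeR and 9.64% with DESeq2. These rates do not measure false calls in the real data, where genes are not independent of each other. Fold changes are Cyp7a1-labelled over control on the log2(value + 1) scale and understate changes of low genes. Exon lengths are GENCODE M21.

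Every member is accounted for: those past the threshold and the highest of each subfamily have full values. Lists give up to 3 genes past the threshold, or 1 where none passed. Members and lists were chosen with earlier results of these data known. Other alternatives were a pseudocount of 8, a minimum mean of 50 or none, quantile normalization, equal totals, array weights and each library left out.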

Additional observations from a re-analysis of the deposited data

Results flagged for a closer look

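In 8 of 100 groups of 8 libraries, 62 of them of Cyp2 members, the highest or lowest library lay far from the rest by Dixon's criterion on the log2 scale (gap over the group's range). Chance flags about 1 group in 20. Among members, Cyp2d40 was highest in Cyp7a1 5, with 620 normalized counts against 494 in the next liver (gap over range 0.568), still below every control. Cyp2d9 was lowest in Cyp7a1 36, at 13393 against 17511 (0.529). Cyp2c55 was lowest in Control 12, at 13.7 against 35.7 (0.542), and Cyp2s1 lowest in Control 20, at 9.41 against 21.2 (0.570).

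Among the other named genes, Cyp7a1 36 was the highest for Aldh1b1, at 3854 against 2108 (0.641), and the lowest for Serpina12, at 354 against 881 (0.652), and for Ugt1a9, at 337 against 612 (0.639). Fech was lowest in Cyp7a1 24, at 3494 against 3868 (0.682). The cause of these values was not tested.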

How the results depend on the processing

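Cyp2d26, Cyp2d40 and Cyp2u1 were lower under every alternative run and with any 1 library left out. The number of members lower was 3 to 5 over the left-out libraries, with 5 without Control 7, and 6 with DESeq2. The number higher was 0 with quantile normalization, 0 with equal totals, 0 with array weights and 0 with edgeR, and 0 to 1 over the left-out libraries, the 1 being Cyp2c39. Over all genes, 475 to 813 passed with 1 library left out, the fewest without Cyp7a1 28. The Cyp7a1 transcript did not pass under any alternative. Cyp2a22 changed sign, to -0.030 with array weights, -0.032 with edgeR and -0.032 with DESeq2, and ranged from -0.080 to 0.11 over the left-out libraries, as Cyp2g1 did from -0.24 to 0.13. Neither was called. The cause of these changes was not tested. A minimum mean of 50 left out Cyp2c55, Cyp2d34, Cyp2g1 and Cyp2s1, whose low counts limit what can be seen. No paired analysis was possible because the groups share no replicate numbers.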

Other observations

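Among the 31 cytochrome P450 genes of the table outside the Cyp2 family, 5 were higher and 5 lower in Cyp7a1-labelled livers, or 32.3% against 6.12% of all genes. The higher ones were Cyp8b1, the sterol 12-alpha-hydroxylase (log2 fold change 1.23), Cyp17a1 (2.00), Cyp51, a demethylase of cholesterol synthesis (1.501), Cyp4a14 (1.36) and the oxysterol hydroxylase Cyp39a1 (0.69). The lower ones were the retinoic acid hydroxylase Cyp26a1 (-1.13), Cyp3a59 (-0.81), Cyp3a11 (-0.47), Cyp3a25 (-0.45) and Cyp4v3 (-0.35). Of the retinoic acid hydroxylases named here, Cyp26a1 was lower while Cyp2c39 was higher just past the threshold. The Cyp2c39 call was lost with any of 13 libraries left out. Cyp26b1 did not pass (log2 fold change 0.03, adjusted p = 0.974). Both family genes excluded by name, Cyp2c70 and Cyp2a12, missed the threshold. Cyp2c70 had 4601 ± 2407 normalized counts in Cyp7a1-labelled livers and 8453 ± 3795 in controls (log2 fold change -0.87, adjusted p = 0.0970). Cyp2a12 had 10087 ± 1470 and 12428 ± 1867 in the same order (-0.30, adjusted p = 0.0824).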
